A study of Drosophila melanogaster with 8 samples.

Results

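The odorant binding protein (*Obp*) genes of *Drosophila melanogaster* were followed in poly(A)-enriched RNA from adult testes and from whole second instar larvae of *tgs1* genotypes. Members were the rows whose symbol begins with Obp and a number, joined between the testis and larval tables by FlyBase identifier. This gave 47 genes of the 17122 genes in either table, of which 44 were in the testis table, 45 in the larval table and 42 in both. *Obp19a*, *Obp19b*, *Obp50b* and *Obp83a*, which carry the same kind of symbol in the annotation, were not analysed here.

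Tgs1 is the enzyme that places the trimethylguanosine cap on small nuclear RNAs, and the study asked how its loss affects the germline, splicing and expression. Each of the 4 groups had 2 libraries, made from about 100 adult testes or 80 larvae of flies kept at 25 °C according to the labels. The paper's methods instead give about 100 pairs of testes. Library titles name the testis groups wild type and *tgs1*hypo, the latter a viable but sterile combination of the alleles *moi*CB0 and *tgs1*15-11. The genotype labels, however, read bam>tgs1;tgs1hypo for the wild-type testis libraries, described as a *tgs1* cDNA rescue that is as wild type, and bam>moi;tgs1hypo for the mutant ones. Under those labels both testis groups carry *tgs1*hypo, and the cDNA is driven by *bam-gal4*, which acts in the male germline and not in the somatic cells around it or in the glands of the male tract. The labels themselves do not settle which of the 2 descriptions holds for the testis libraries. The title names are used below, and the *moi* levels that bear on this are given with the library values. Larval controls are labelled *tgs1*2-4, a line without mutation in *tgs1* or *moi* coding sequence, and mutant larvae are homozygous for *tgs1*2-3, a frameshift allele that is lethal in the second instar and is named tgs1KO in the titles. Nothing in the labels says that the replicates came from separate crosses, so p-values measure the spread between these libraries, which may be technical.

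Odorant binding proteins are small secreted proteins, held together by disulfide bonds, that carry hydrophobic ligands through aqueous fluid. Those of the antenna fill the lymph around olfactory neurons, where ligands reach the odorant receptors, and others are made in taste organs. The family is not confined to the senses: several members are made in the glands of the male reproductive tract and pass to the female with the seminal fluid, and others are secreted by fat body or glia.

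Values were deposited as FPKM (fragments relative to transcript length and library size) without counts, so the read depth behind a value is unknown. Summed FPKM ran from 792501 to 825832 in the testis libraries and from 589777 to 639074 over named genes in the larval ones. The Pearson correlation of log2(FPKM + 1) across genes was 0.994 between wild-type and 0.990 between mutant testis libraries, and 0.929 and 0.953 for the larval pairs. The median SD between replicates on that scale was 0.0948 in testes and 0.238 in larvae. *Tgs1* itself was not analysed here. *moi*, which shares its transcription unit, stood at 10.1 and 11.4 FPKM in wild-type testes against 3.81 and 2.71 in *tgs1*hypo, and at 4.64, 7.42, 6.41 and 6.85 FPKM in the larval libraries, where a frameshift need not alter the mRNA level. In testes *moi* was thus lower in the libraries whose genotype label names a *moi* cDNA and higher in those whose label names none (log2 change -1.47, limma adjusted p 0.00039), which goes against the genotype labels and with the titles. Whether the deposited *moi* values count reads of the cDNA was not tested. The 15 germline testis genes measured in testes summed to between 9646 and 12976 FPKM there, and the 14 measured in larvae to between 5.23 and 21.4 FPKM. Larval cuticle genes summed to between 1377 and 1805 FPKM in larvae and to at most 1.45 FPKM in testes. The testis libraries also held 5930 to 8974 FPKM of accessory gland genes, products of a separate organ of the male tract.

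All 47 genes were found in the Ensembl BDGP6.54 annotation under the same symbol. Of these, 28 lie on chromosome arm 2R, 11 on 3R, 4 on X, 2 on 2L and 2 on 3L. A total of 26 members lie in 8 groups of neighbours no more than 10000 bases apart. The largest group runs from *Obp56a* to *Obp56f*, 6 genes over 16254 bases of 2R (19697723 to 19713976), and 4 genes of the *Obp50* group lie within 5055 bases of 2R (14370331 to 14375385). Their transcripts are short, with a median of 610 bases for the longest isoform. Introns are few and small: 2 members have none (*Obp28a* and *Obp99d*), 27 have 1, and in 39 of the 45 with introns the shortest is under 100 bases.

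Of the 42 genes in both tables, 11 had a wild-type mean of at least 1 FPKM in testes and not in larvae, 13 in larvae and not in testes, 8 in both and 10 in neither. Over the 14225 genes in both tables the shares were 21.6% in testes alone, 11.5% in larvae alone, 51.5% in both and 15.3% in neither. The shared genes were *Obp18a*, *Obp44a*, *Obp56d*, *Obp83g*, *Obp99a*, *Obp99b*, *Obp99c* and *Obp99d*. Neighbours could differ: in the *Obp56* group, *Obp56e* and *Obp56f* were the testis genes, *Obp56a*, *Obp56b* and *Obp56c* the larval ones and *Obp56d* was in both. The tables were made separately and the tissues carry different alleles, so levels are set side by side and no difference between tissues was tested.

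In wild-type testes *Obp* mRNA summed to 3942 and 4184 FPKM, about 0.497% and 0.507% of all FPKM, and in *tgs1*hypo testes to 3553 and 3538 FPKM, or 0.435% and 0.440%. Of this sum, *Obp44a*, *Obp51a* and *Obp99a* held between 91.8% and 93.2% in each library. *Obp44a* ranked 36 among the testis genes by wild-type level, *Obp51a* ranked 120 and *Obp99a* 126. Below them 8 genes had wild-type means from 10 to 100 FPKM, 8 from 1 to 10, and 25 under 1. In bulk RNA, fewer cells of a type and less RNA per cell cannot be told apart.

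**Figure D1:**
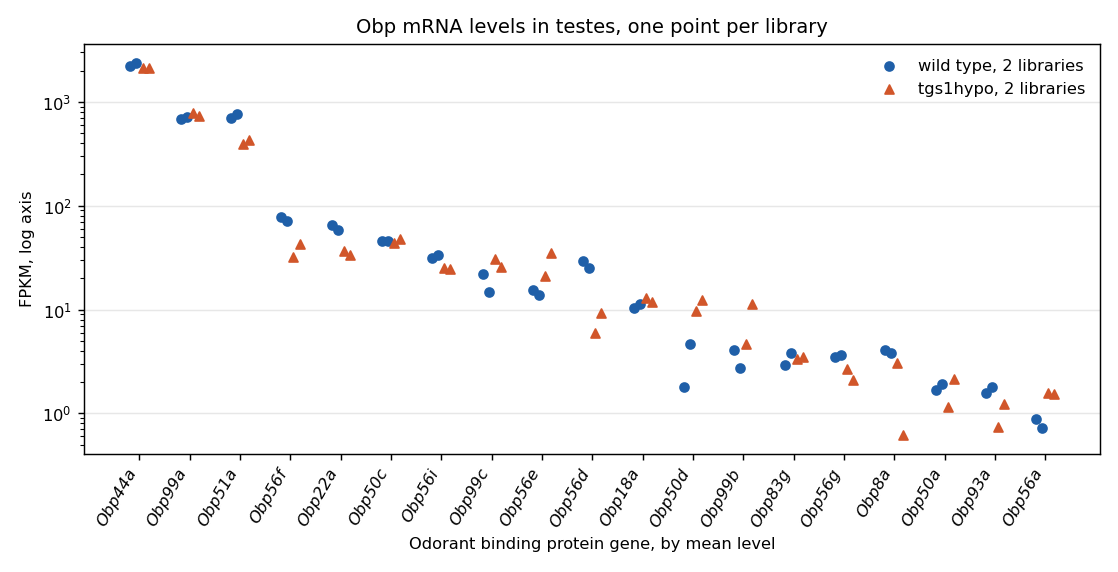
FPKM (log axis) of the 19 *Obp* genes averaging 1 FPKM or more in the 4 testis libraries, ordered by mean level; each circle is a wild-type library and each triangle a *tgs1*hypo library. *Obp44a* sits highest, at 2100 FPKM or more in each library, and the wild-type and mutant points of *Obp56d* and *Obp50d* lie apart.

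The genotype comparison asked whether *Obp* mRNA differed between *tgs1*hypo and wild-type testes. It used limma on log2(FPKM + 1), over the 11343 genes averaging 1 FPKM or more across the 4 libraries. Calls needed a Benjamini-Hochberg adjusted p below 0.05 together with a log2 change of 1 or more in size. Of the 44 members 19 passed this filter. Among these, 1 was called higher (*Obp50d*) and 1 lower (*Obp56d*), where 3.54% of all tested genes were called higher and 7.11% lower. With median-of-ratios scaling 1 was called higher and 2 lower, beside 2.49% and 8.55% of all genes. By the adjusted p alone, 4 were higher and 6 lower, beside 34.3% and 23.4% of all genes. Among the 4, *Obp56a* averaged 0.797 FPKM in wild type and passed the filter only through the mutant. Both mutant libraries lay above both wild-type libraries for 7 members and below for 9, against 47.7% and 32.6% of all genes. The 7 include *Obp56a*, and the 9 include *Obp93a*, which averaged 0.983 FPKM in the mutant and passed the filter only through wild type. The median log2 change of the 19 was -0.11 and that of all tested genes 0.11.

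*Obp56d*, an olfactory member in adults, fell. It lies in the *Obp56* group on the minus strand of 2R (19702924 to 19703915). Wild-type testes had 29.6 and 24.9 FPKM of it and *tgs1*hypo testes 5.89 and 9.23, so both mutant libraries were well below the controls. The log2 change was -1.75 (SE 0.19, limma adjusted p 0.000384), and between -2.03 and -1.46 with any library left out. No other antennal member in the testis table passed the filter.

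*Obp50d*, a gene of the *Obp50* group on the plus strand (2R, 14373108 to 14373808), rose from 1.80 and 4.69 FPKM in wild type to 9.76 and 12.2 FPKM in the mutant. The wild-type pair differed more than the mutant pair, and the genotypes did not overlap. Its log2 change was 1.58 (SE 0.31, limma adjusted p 0.0049), and between 1.07 and 2.09 with any library left out. Its neighbours behaved otherwise: *Obp50c* stood at 45.5 and 46.03 FPKM in wild type against 43.7 and 47.7 FPKM in the mutant, and *Obp50a* at 1.68 and 1.91 against 1.14 and 2.15 FPKM. The libraries of the genotypes overlapped for both. *Obp50c* overlaps *Obp50b* on the same strand, so its reads could be shared with that gene.

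The 7 seminal fluid members were all measured above the filter in testes, and 6 of these had both mutant libraries below both controls. None was called, since their log2 changes stayed under 1 in size, but 5 were lower and 1 higher by the adjusted p alone, beside 23.4% and 34.3% of all genes, and 32.6% of all genes lay below both controls. *Obp51a*, the most abundant of these, had 704 and 764 FPKM in wild type against 390 and 430 in *tgs1*hypo testes (log2 change -0.84, SE 0.08, limma adjusted p 0.000172). On the opposite strand *hbs* had at most 0.607 FPKM. *CR45256* and *CG43101* are listed under the same testis locus, and their levels were not examined. *Obp56f* had 77.8 and 71.2 FPKM in wild type against 32.2 and 43.1 in the mutant (-0.98, SE 0.13, limma adjusted p 0.000922), a value just short of the fold limit that was called lower at -1.09 with median-of-ratios scaling. *Obp22a* went from 65.1 and 58.7 to 36.7 and 33.4 FPKM (-0.80, SE 0.08, limma adjusted p 0.000316).

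The remaining seminal fluid members were less abundant. *Obp56i* had 31.2 and 33.2 FPKM in wild type against 25.1 and 24.6 in the mutant, and *Obp56g* 3.50 and 3.62 against 2.67 and 2.10 FPKM. Both pairs of groups lay apart, by log2 changes of -0.36 and -0.43. *Obp8a*, on the X chromosome, had 4.12 and 3.84 FPKM in wild type against 3.03 and 0.621 in the mutant. Its mutant libraries differed from each other, and the change of -0.96 had an SE of 0.39 and a limma adjusted p of 0.069. *Obp56e* moved the other way, from 15.3 and 13.8 to 21.1 and 35.0 FPKM (0.86, SE 0.21, limma adjusted p 0.012). An antisense RNA overlaps *Obp56e*, at 3.95, 4.37, 3.34 and 2.16 FPKM in the same library order, and the strand of counting was not given in the sources used here.

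Genes of the male tract were measured in the same libraries. Summed over the 7 *Obp* genes, the level came to 902 and 949 FPKM in controls against 511 and 568 in *tgs1*hypo, a ratio of means of 0.583. The accessory gland list, 25 genes of which 24 were tested, held 8974 and 8954 FPKM in controls against 5930 and 5939 in the mutant, a ratio of 0.662. In that list 20 genes lay below both controls and 2 above, 18 were lower by the adjusted p alone, 1 was called lower (*Acp54A1*, log2 change -2.16) and the median was -0.55. Over all genes 32.6% lay below, 47.7% above, 23.4% were lower by the adjusted p alone and 7.11% were called lower. Its genes ranged in ratio from 0.241 to 1.37, and the 6 seminal fluid *Obp* genes other than *Obp56e* from 0.458 to 0.771. Per 100 FPKM of accessory gland genes the libraries held 10.05 and 10.6 FPKM of seminal fluid *Obp* mRNA in controls against 8.62 and 9.57 in the mutant.

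Marker lists of other tissues were summed in the same libraries. The muscle list (9 genes tested) summed to 695 and 687 FPKM in wild type against 426 and 459 in the mutant, a ratio of 0.640, with *Mp20* and *Act57B* called lower, 2 of 9 beside 7.11% of all genes. Of the 9, 8 lay below both controls and 0 above, 8 were lower by the adjusted p alone, and the median log2 change was -0.72. The ejaculatory duct and bulb list had a ratio of 0.770 in its summed level and was not uniform: 4 of 6 tested genes lay below the controls and 2 above. The 2 were *PebIII*, at 158, 170, 340 and 299 FPKM in the same library order, and *PebII*, which was called higher. *PebII* was near the floor, at 0.176, 1.38, 2.38 and 6.03 FPKM, and passed the filter only through the mutant. *Peb*, at 0.484, 0.363, 0.668 and 2.21 FPKM, was not tested. Germline testis genes had a ratio of 0.781 in a sum to which *Mst87F* alone gave 5587, 6127, 3755 and 3710 FPKM. Their median log2 change was -0.08, with *nht* (1.05) and *comr* (1.20) called higher and none of the 15 called lower. Of the 15, 7 lay below both controls and 6 above, and 6 were lower and 4 higher by the adjusted p alone. The lowest log2 change in that list was -0.98. Cyst and hub cell genes had a ratio of 0.953 and a median of -0.10, and *os*, a ligand of the hub, was called lower (-1.51), 1 of 8 tested. Beside these counts, 32.6% of all genes lay below the controls and 47.7% above, 3.54% were called higher and 7.11% called lower. By the adjusted p alone, 23.4% of all genes were lower and 34.3% higher. The part of these tissues in the *Obp* changes was not tested.

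**Figure D2:**
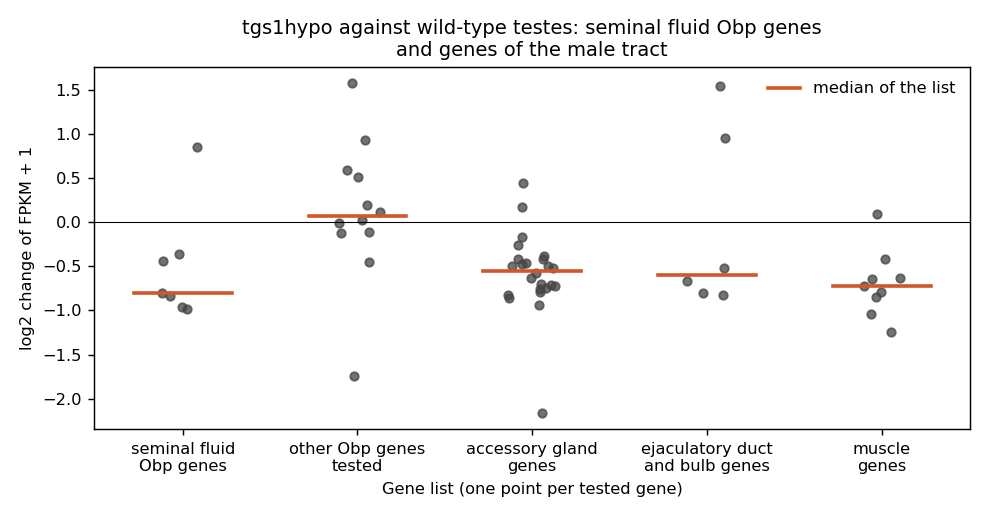
Log2 change (*tgs1*hypo minus wild type, log2(FPKM + 1)) of each tested gene in the seminal fluid *Obp* list, the other tested *Obp* genes, and the accessory gland, ejaculatory duct and bulb, and muscle lists; horizontal bars are list medians. The seminal fluid *Obp* median is -0.80 (-0.35 without the second *tgs1*hypo library) and the accessory gland median -0.55 (-0.66 to -0.53 with any library left out).

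Neither of the other abundant members was called. *Obp44a* had 2232 and 2392 FPKM in wild type against 2134 and 2100 in *tgs1*hypo testes. The mutant libraries were lower, by a log2 change of -0.13 that was not called (limma adjusted p 0.20). Its direction depended on the scaling: the change was -0.13 with each library rescaled to a sum of 1000000 (limma adjusted p 0.037) and 0.28 under quantile normalization (limma adjusted p 0.0010). Over the alternatives the adjusted p ran from 0.0010 to 0.65. *Pabp2*, which overlaps it on the opposite strand, had 30.5, 29.3, 41.9 and 44.6 FPKM in the same order. *Obp99a* had 681 and 723 FPKM in wild type against 787 and 735 in the mutant (0.12, limma adjusted p 0.19), higher in both mutant libraries.

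Other members had higher values in both mutant libraries and were not called. *Obp99c* had 22.2 and 14.9 FPKM in wild type against 30.6 and 25.6 in the mutant, and *Obp56a* 0.879 and 0.716 against 1.57 and 1.55 FPKM. Their log2 changes of 0.60 and 0.51 had limma adjusted p-values of 0.028 and 0.030. *Obp56a* passed the filter only through its mutant level, so its place among the higher genes depends on the filter. *Obp99b*, secreted from fat body in adult males, had 4.08 and 2.72 FPKM in wild type against 4.63 and 11.2 in the mutant, a change of 0.93 with an SE of 0.35 (limma adjusted p 0.058) that was 0.37 without the second mutant library. *Obp18a* had 10.3, 11.3, 13.0 and 12.0 FPKM. The fat body genes of the testis libraries summed to between 29.2 and 33.6 FPKM.

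The other members above the filter were *Obp83g*, with overlapping groups at 2.93, 3.80, 3.36 and 3.48 FPKM, and *Obp93a*, at 1.59, 1.81, 0.740 and 1.22 FPKM. *Obp93a* lies opposite *CG5793*, which had 30.8 to 39.1 FPKM. The 25 members below the filter had means of at most 0.994 FPKM. *Obp99d* was the member just under the limit, and *Obp56a* was the lowest just inside it, between 0.716 and 1.57 FPKM. Single values of members below the filter reached at most 1.18 FPKM.

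**Figure D3:**
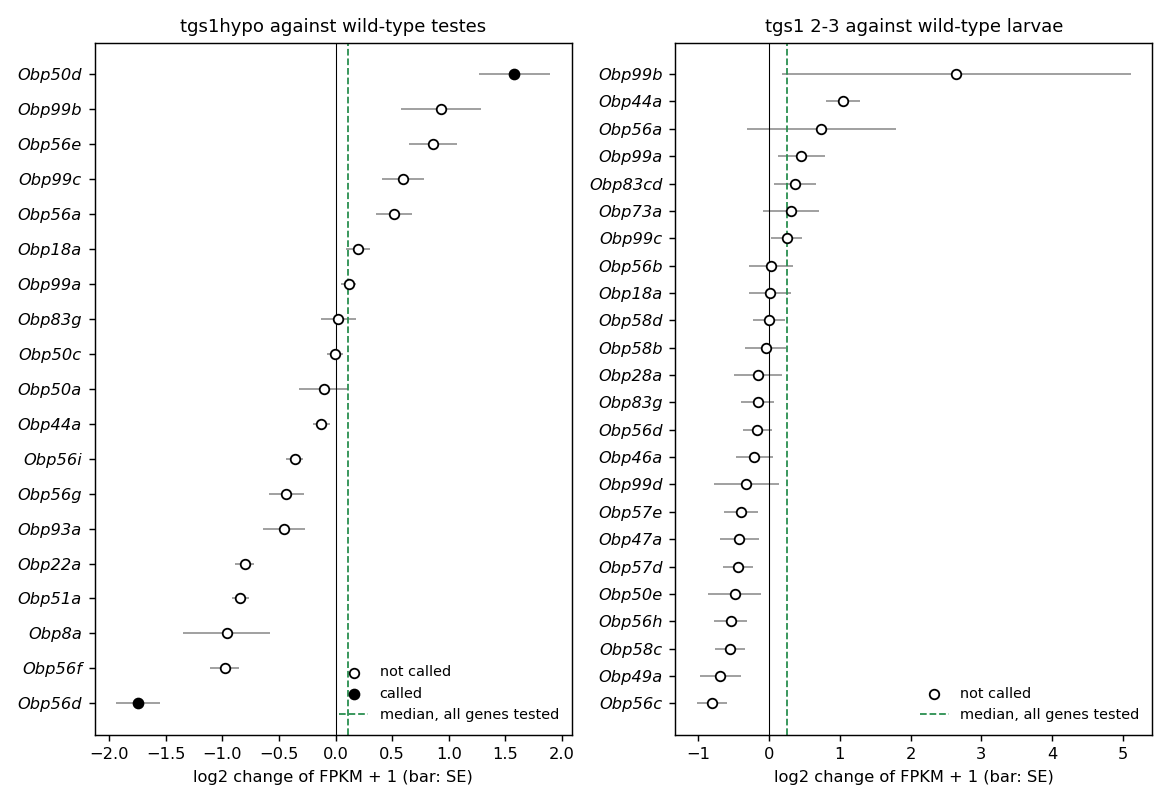
Log2 change of FPKM + 1 (mutant minus wild type, bars are the SE) of each tested *Obp* gene in testes (left, 19 genes) and larvae (right, 24 genes); filled points are called genes, and the dashed line is the median of all tested genes, 0.11 and 0.25. In testes *Obp50d* and *Obp56d* are called, and in larvae no member is.

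Other odour transport genes and the odorant, ionotropic and gustatory receptor genes mostly fell below the filter in testes. Of 20 other odour transport genes in the table, 4 passed the filter and none was called, while *PebIII*, which is also a gene of the ejaculatory bulb, and *Phk-3* (3.01, 3.65, 7.37 and 5.18 FPKM) were higher by the adjusted p alone. Of 52 odorant receptor genes 4 were tested, and *Or23a* was called higher, from 0.871 and 1.19 to 4.89 and 5.24 FPKM. Of 60 ionotropic receptor genes 7 were tested and 2 were called lower, *Ir75d* and *Ir100a*. *Ir75d* had 26.3 and 23.8 FPKM in wild type against 4.60 and 4.79 in the mutant. By the adjusted p alone, 5 of the 7 were lower. Among the 5, *Ir100a*, *Ir68b* and *Ir41a* had at most 0.768 FPKM in the mutant and passed the filter only through wild type. The filter also left out genes that rose from near the floor, such as *Ir11a*, at 0, 0.0328, 1.476 and 1.258 FPKM in the same library order. The median log2 change of the ionotropic receptors was -0.76 with the filter and 0.018 without it, so their lower counts depend on the filter. Of 54 gustatory receptor genes 3 were tested and *Gr22f* was called lower. These counts stand beside 3.54% of all genes called higher, 7.11% called lower and 23.4% lower by the adjusted p alone.

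In larvae the *Obp* genes came to a sum of 1804 and 884 FPKM for wild type, against 1192 and 1930 for *tgs1*2-3, or 0.282%, 0.149%, 0.202% and 0.325% of the sum over named genes. The groups overlapped, and the spread came largely from 2 genes, *Obp56a* and *Obp99b*. Of the 45 members, 24 passed the filter. The second *tgs1*2-3 library stood apart in some genes of the salivary glue and the larval serum. *Sgs7*, a glue gene, was at 55.9 FPKM there against 0 in the other 3 libraries, *Fbp1*, the fat body receptor for larval serum proteins, at 25.1 FPKM against 0, and *Lsp2*, a serum protein gene, at 118 FPKM against at most 0.125 FPKM. Of the 11 genes of the third instar list, 4 (*Sgs3*, *Sgs5*, *Sgs7* and *Sgs8*) reached 20.6 to 55.9 FPKM there and at most 1.11 FPKM elsewhere. The others did not share this: *ng1*, *ng2* and *ng3* had 217 to 2076 FPKM across the 4 libraries, *Sgs1* and *Sgs4* at most 1.08 FPKM, and *Eig71Ea* and *Eig71Eb* were lower there than in wild type, at most 0.936 FPKM. The count of *Obp* genes called was 0 with and without that library.

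**Figure D4:**
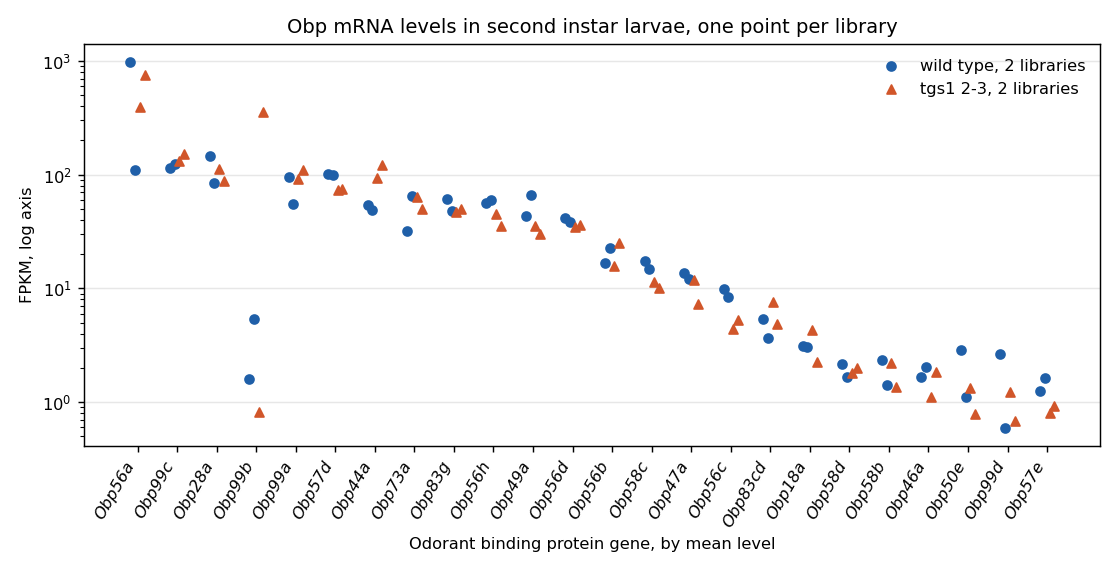
FPKM (log axis) of the 24 *Obp* genes averaging 1 FPKM or more in the 4 larval libraries, ordered by mean level; circles are wild-type and triangles *tgs1*2-3 libraries. *Obp56a* and *Obp99b* show the widest spread between libraries, and *Obp44a* lies higher in both mutant libraries.

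The larval comparison asked the same question of *tgs1*2-3 and wild-type larvae over 9545 genes, and no *Obp* gene was called in either direction, as for 0% of all genes. The smallest limma adjusted p among the members was 0.575. At an unadjusted limma p under 0.05, 1 member was higher (*Obp44a*) and 1 lower (*Obp56c*), beside 7% and 0.775% of all genes, 668 and 74 genes. Both mutant libraries lay above both controls for 2 members and below for 8, beside 43.1% and 4.46% of all genes. The 8 include *Obp57e*, which passed the filter only through wild type. With median-of-ratios scaling, chosen after seeing the data for this count, 1 member lay above and 10 below, beside 17.5% and 14.2%.

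*Obp56a* was the most abundant member in larvae, with 54.1% and 12.5% of the *Obp* sum in wild-type libraries and 33.3% and 39.4% in mutant ones. It had 975 and 110 FPKM in wild-type larvae against 398 and 760 in *tgs1*2-3 larvae. The wild-type replicates lay at the opposite ends of this range and the mutant ones between them. The log2 change of 0.74 had an SE of 1.06 (limma adjusted p 0.75) and was -0.83 without the second wild-type library.

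*Obp99b* had 1.59 and 5.40 FPKM in wild type against 0.823 and 357 in the mutant. Its level was high in the second mutant library alone, where it made up 18.5% of the *Obp* sum. The log2 change of 2.65 had an SE of 2.46 (limma adjusted p 0.65) and was -1.16 without that library. The same library held 118 FPKM of *Lsp2* and 31.0 FPKM of *Sgs3*. *Lsp1beta* was at 265 FPKM there but also at 51.8 FPKM in the second wild-type library, with 4.73 FPKM in the first and 0.144 FPKM in the other mutant library. The fat body list, which includes *Lsp2*, *Lsp1beta* and *Fbp1*, summed to 590 FPKM in it against 93.6, 127 and 97.6 FPKM in the others. The list did not move as 1: of its 7 tested genes, both mutant libraries lay above both controls for 2, beside 43.1% of all genes. The groups overlapped for the other 5. The part of these genes in the *Obp99b* level was not tested.

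**Figure D5:**
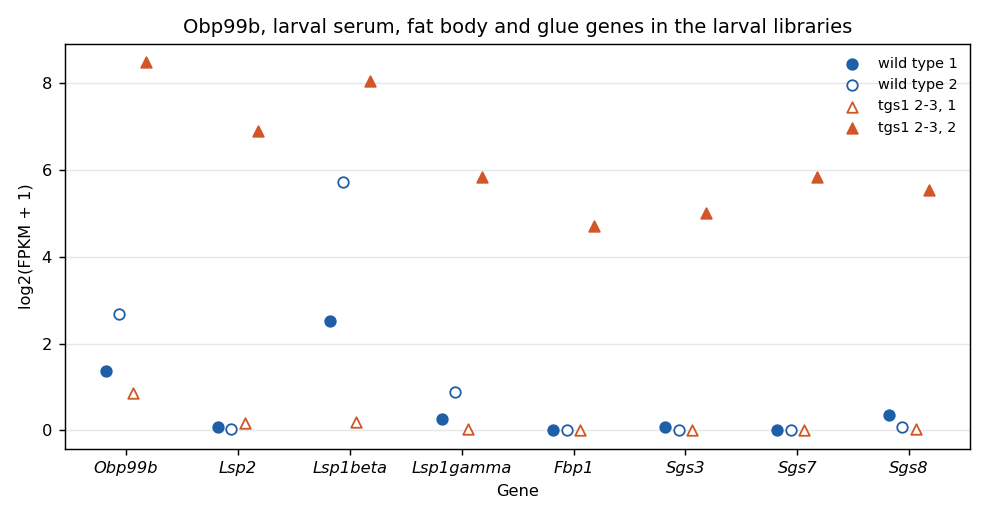
log2(FPKM + 1) of *Obp99b*, larval serum and fat body genes and salivary glue genes in the 4 larval libraries; filled triangles are the second *tgs1*2-3 library. For each gene shown this library has the highest point, and *Obp99b* is at 357 FPKM in it. The genes shown are a part of their lists, chosen with their values known, and list members such as *ng1*, *Sgs1* and *Eig71Ea* did not share this.

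*Obp44a*, a glial member of the larval nervous system, had 53.9 and 48.9 FPKM in wild type against 92.9 and 123 in *tgs1*2-3 larvae. Both mutant libraries were above both controls, by 1.04 on the log2 scale (SE 0.25, limma adjusted p 0.57, between 0.84 and 1.24 with any library left out). The glia list had 9 genes tested, of which none was called, and its sum came to 252 and 218 FPKM in controls against 398 and 246 in the mutant. *Pabp2*, opposite *Obp44a*, had 31.2, 12.5, 23.96 and 21.97 FPKM.

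Of the 4 members with over 100 FPKM in the wild-type mean, *Obp28a*, an antennal and olfactory member, had 145 and 83.8 FPKM in wild type against 111 and 88.1 in the mutant. *Obp99c* had 114 and 125 FPKM against 132 and 153 FPKM, higher in both mutant libraries by a log2 change of 0.25, close to the median of all genes and turning to -0.03 with median-of-ratios scaling. *Obp57d*, a taste organ member known in *Drosophila* species for its part in responses to host plant acids, had 101 and 99.4 FPKM in wild type against 73.0 and 74.3 in the mutant. It overlaps *Cpr57A* on the same strand. Its groups lay apart, by -0.44 (SE 0.21, limma adjusted p 0.57).

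The 3 taste organ members measured had lower values in both mutant libraries. *Obp49a*, which acts in the suppression of sweet taste by bitter compounds, had 43.2 and 66.0 FPKM in wild type against 35.3 and 30.3 in the mutant, and *Obp57e* 1.25 and 1.64 against 0.802 and 0.918 FPKM. In each of the 3 genes the mutant libraries lay below both controls, as for 4.46% of all genes, or 14.2% with median-of-ratios scaling. Their median log2 change was -0.44, beside 0.25 for all genes, and none was called. The 3 genes were among 8 members below both controls, the others being *Obp47a*, *Obp56c*, *Obp56d*, *Obp56h* and *Obp58c*. Among the 8, *Obp57e* averaged 0.860 FPKM in the mutant and passed the filter only through wild type, so its place here depends on the filter.

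*Obp56c* had 9.97 and 8.39 FPKM in wild type against 4.38 and 5.25 in the mutant, -0.81 on the log2 scale (SE 0.21, limma adjusted p 0.57). *Obp56h*, known in adults for its part in mating behaviour, had 56.1 and 60.2 FPKM against 44.7 and 35.2 FPKM, and *Obp58c* 17.5 and 14.8 FPKM against 11.4 and 10.1 FPKM. *Obp47a* had 13.6 and 12.1 FPKM against 11.8 and 7.35 FPKM, and *Obp56d* 41.4 and 38.4 FPKM against 34.8 and 36.2 FPKM. The 8 genes are on arm 2R: 8 of the 15 tested members on 2R lay below the controls and 0 of the 9 on other arms. This split by arm was not planned and was made with the position of the 8 genes known, so it does not test an effect of the arm. Over all genes the shares were 6.71% on 2R and 3.89% on the other arms. With median-of-ratios scaling 9 of the 15 and 1 of the 9 lay below, beside 16.3% and 13.7% of all genes. The median log2 change of the 24 members was -0.16 and that of all genes 0.25, or -0.41 and 0.013 with median-of-ratios scaling. In the testis comparison, 6 of the 11 tested members on 2R and 3 of the 8 on other arms lay below the controls. The shares of all genes there were 35.3% and 32%.

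The other larval members had overlapping groups. *Obp99a* had 95.9 and 55.0 FPKM in wild type against 92.0 and 109 in the mutant, *Obp73a* 31.7 and 64.4 against 64.2 and 49.4 FPKM, and *Obp83g* 61.2 and 47.6 against 47.0 and 49.5 FPKM. *Obp56b* had 16.7 and 22.8 FPKM against 15.7 and 25.2 FPKM. Lower still were *Obp83cd* at 5.43, 3.69, 7.53 and 4.89 FPKM, *Obp18a* at 3.13, 3.07, 4.29 and 2.24 FPKM, and *Obp46a*, *Obp50e*, *Obp58b*, *Obp58d* and *Obp99d*, which stayed between 0.598 and 2.87 FPKM. *Obp83cd* overlaps *Obp83ef*, so the levels of this pair are uncertain. The 21 members below the filter had means of at most 0.772 FPKM, among them *Obp50d*, and *Obp83b* was listed at 0 in each library. The 7 seminal fluid members summed to at most 1.74 FPKM in larvae.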

How the data were processed

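RNA was enriched for poly(A) tails and sequenced by the authors on an Illumina HiSeq instrument. The authors mapped reads with HISAT2 to FlyBase r6.16 and deposited FPKM values for each library. featureCounts and DESeq2 are named for expression levels, while the tool behind the FPKM values and the strand of counting are not given in the sources used here. Depth is unknown, and precision comes from 2 replicates per group.

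Values were put on the scale log2(FPKM + 1), and genes with a FlyBase identifier that averaged 1 FPKM or more in the 4 libraries of a tissue were fitted with limma 3.58.1 (lmFit, eBayes with trend, genotype as the term) in R 4.3.3. Tissues were fitted apart. A call needed a Benjamini-Hochberg adjusted p below 0.05 over all genes tested and a log2 change of 1 or more in size. An exact permutation test of 2 libraries against 2 cannot go below p 0.333 and was not used. The pipeline was tested on simulated data. Gene positions came from Ensembl release 115 (BDGP6.54), and figures from Python 3.11.15, pandas 2.3.3, numpy 2.4.6 and matplotlib 3.10.9. No sequence is shown.

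Every *Obp* gene with a mean of at least 1 FPKM in a tissue was described in that tissue, and members of other lists only where called or highest in their list. Further genes were named where their values stood beside a result, after these were seen. Members and lists were chosen with earlier results of these data known. Lists are given by counts and medians, with no test of the list. Alternatives were a pseudocount of 0.1, no filter, a filter at 5 FPKM, scaling by the median of ratios, by quantiles or to a sum of 1000000, calls by the adjusted p without a fold limit, no trend, a replicate block and leaving out each library.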

Additional observations from a re-analysis of the deposited data

How the results depend on the processing

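In testes, the count of *Obp* genes called lower was 2 with median-of-ratios scaling and with quantile normalization (*Obp56d* and *Obp56f*), and the adjusted p alone gave 4 higher and 6 lower. Leaving out a library gave 1 to 3 higher and 1 to 2 lower: without *tgs1*hypo replicate 1 the higher genes were *Obp50d*, *Obp56e* and *Obp99b*, and *Obp8a* was added to the lower ones; *Obp56f* was added without wild-type replicate 2 or *tgs1*hypo replicate 2. A group left with 1 library takes its spread from the other. A pseudocount of 0.1, no filter, a mean of 5 FPKM, rescaling and no trend left 1 higher and 1 lower. In larvae the count was 0 under each alternative. A replicate block gave 1 higher and 1 lower in testes and 0 and 0 in larvae; deviations of same-numbered libraries correlated at 0.13 in testes and -0.17 in larvae, and with 2 pairs the numbers were not taken as pairing. Directions turned for *Obp83g* in testes (-0.060 with median-of-ratios scaling), *Obp44a* and *Obp50a* in testes (0.28 and 0.065 with quantile normalization), *Obp99c*, *Obp18a* and *Obp56b* in larvae (-0.033, -0.20 and -0.24 with median-of-ratios scaling), *Obp18a* and *Obp56b* (-0.24 and -0.23 with quantile normalization) and *Obp58d* (0.040 after rescaling). With each library left out in turn, log2 changes ran in testes from -0.12 to 0.17 (*Obp83g*), -0.066 to 0.059 (*Obp50c*) and -0.38 to 0.17 (*Obp50a*). In larvae they ran from -0.55 to 0.24 (*Obp28a*), -0.92 to 0.28 (*Obp99d*), -0.30 to 0.35 (*Obp56b*), -0.29 to 0.19 (*Obp58b*), -0.14 to 0.13 (*Obp58d*), -0.19 to 0.81 (*Obp73a*), -0.34 to 0.018 (*Obp83g*), -0.83 to 2.31 (*Obp56a*), -0.34 to 0.37 (*Obp18a*), -0.42 to 0.0039 (*Obp46a*) and -1.16 to 6.46 (*Obp99b*). The cause of these shifts was not tested. The median log2 change of all genes moved from 0.11 to 0.015 in testes and from 0.25 to 0.013 in larvae with median-of-ratios scaling. Without counts, the depth behind low values is unknown.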
